A study of Mus musculus with 54 samples.

Results

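Fatty acid oxidation genes were followed in liver, kidney and quadriceps of C57BL/6J mice, as 32 genes picked by symbol out of the 55471 rows of each tissue's count table. Fatty acids are burned in mitochondria after the carnitine shuttle has carried them in, and very long chains are first shortened in peroxisomes. The spiral of oxidation cuts acetyl-CoA units from the chain and passes electrons to the respiratory chain. In liver much of the acetyl-CoA becomes ketone bodies, and the nuclear receptor PPARα, bound by fatty acids, switches on many of these genes in liver and kidney during fasting.

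The 32 genes were ordered by role. The carnitine shuttle held Cpt1a and Cpt1b, the liver and muscle forms of the outer membrane acyltransferase, the carrier Slc25a20 and the inner acyltransferase Cpt2. The mitochondrial spiral held the acyl-CoA dehydrogenases Acadvl, Acadl, Acadm and Acads, the trifunctional protein subunits Hadha and Hadhb, the short-chain dehydrogenase Hadh and the thiolase Acaa2. Electrons leave through Etfa and Etfb, the 2 subunits of one flavoprotein, and through its oxidoreductase Etfdh. Decr1, Decr2, Eci1 and Eci2 handle unsaturated chains. Ehhadh, Hsd17b4, Acaa1a and Acaa1b are the peroxisomal enzymes, Abcd2 and Abcd3 the peroxisomal acyl-CoA transporters and Pex11a a peroxisome division factor. Acot1 and Acot2 are cytosolic and mitochondrial thioesterases that split acyl-CoA. Ppara encodes PPARα and Ppargc1a its coactivator, Fabp1 is the fatty acid carrier of liver, and Vnn1 is a pantetheinase. The name under which the set was chosen also mentions ketogenesis, but none of the 32 makes or uses ketone bodies. A separate list of 8 ketone body genes is therefore given beside them.

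Mice of both sexes, of 1 inbred strain with no mutation or transgene named in the labels, formed 3 conditions. Young mice had reached 50 weeks. Old and corylin mice had both reached 130 weeks, and differed in diet: control feed for the first, feed supplemented with corylin, a plant flavonoid, for the second. The labels do not give the diet of the young mice, the dose or the length of feeding. Each tissue, sex and condition had 3 libraries of poly(A) RNA, each of 1 animal, except liver of corylin males with 2 (replicates 2 and 3), so 53 libraries of 18 animals were used. Total counts, in units of 1000000, spanned 9.03 to 16.61 for liver, 8.69 to 23.19 for kidney, and for quadriceps 13.25 to 19.7. Levels in a tissue are CPM, read counts scaled to a library of 1000000 after TMM normalisation, and levels between genes or tissues are the authors' TPM, which divides by gene length. Changes are log2 fold changes from edgeR's quasi-likelihood test, with p adjusted by Benjamini-Hochberg over all genes tested in that tissue. The SE after ± was derived as the absolute log2 fold change divided by the square root of the test's F. The 95 percent interval given below treats this SE as normal, without the test's degrees of freedom. A gene passed at an adjusted p under 0.05. Shares of all genes beside an edgeR count come from the same edgeR fit. Counts by DESeq2 or from other fits have no such share beside them. They show only how the edgeR count moved. The comparisons of age and of diet share the old libraries. Replicate numbers name libraries within a tissue: liver corylin male 2 and corylin male 1 of kidney and quadriceps are the same animal, and corylin male 3 is 1 animal in all 3 tissues.

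Promoter sequence is shown for genes on which the liver results turn. It comes from RefSeq's table for GRCm38.p6, which held a window of 300 bases for 26 of the 32 genes, and 270 bases are printed, from 250 before the transcription start to 20 after it, along the gene's strand. Capitals mark exact matches to the core hexamer of nuclear receptor sites, AGGTCA, or matches with up to 2 mismatches to DR1, a pair of these hexamers with 1 base between them, on either strand. PPARα binds DR1 elements together with the retinoid receptor RXR. Bases outside the window of 300 were not searched, so a window without a match does not show that a gene lacks such a site. The first 3 genes are among the 4 with the lowest log2 fold changes in old female liver, and neither motif was found in their windows, nor in that of Pex11a, the remaining one. They are Acot1 (chr12:84009252-84009521, plus strand), Acaa1b (chr9:119157074-119157343, minus strand) and Ehhadh (chr16:21787815-21788084, minus strand).
Acot1: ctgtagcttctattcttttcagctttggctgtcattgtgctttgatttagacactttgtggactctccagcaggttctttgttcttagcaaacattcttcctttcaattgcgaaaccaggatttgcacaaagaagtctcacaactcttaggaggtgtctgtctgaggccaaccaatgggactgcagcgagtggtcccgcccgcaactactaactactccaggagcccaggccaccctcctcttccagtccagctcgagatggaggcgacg
Acaa1b: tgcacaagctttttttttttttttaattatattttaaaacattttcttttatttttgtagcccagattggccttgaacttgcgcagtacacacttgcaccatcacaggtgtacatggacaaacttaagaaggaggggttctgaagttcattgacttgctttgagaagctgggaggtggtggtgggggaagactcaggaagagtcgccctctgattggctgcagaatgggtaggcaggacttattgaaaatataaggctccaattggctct
Ehhadh: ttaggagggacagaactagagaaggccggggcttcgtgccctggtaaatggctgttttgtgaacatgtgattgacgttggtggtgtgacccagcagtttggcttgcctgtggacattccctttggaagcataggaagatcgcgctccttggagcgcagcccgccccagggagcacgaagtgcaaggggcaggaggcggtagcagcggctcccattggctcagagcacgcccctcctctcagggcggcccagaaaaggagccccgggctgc
The next 3 genes fell in the same livers and held a match. They are Acadm (chr3:153944624-153944893, minus strand), with a hexamer at position -249, Etfa (chr9:55512224-55512493, minus strand), with a DR1 match from -77, and Slc25a20 (chr9:108661886-108662155, plus strand), with one from 7. The last is Fabp1 (chr6:71199629-71199898, plus strand), which held hexamers at positions -67 and -9 and the closest DR1 match of all members, with 1 mismatch.
Acadm: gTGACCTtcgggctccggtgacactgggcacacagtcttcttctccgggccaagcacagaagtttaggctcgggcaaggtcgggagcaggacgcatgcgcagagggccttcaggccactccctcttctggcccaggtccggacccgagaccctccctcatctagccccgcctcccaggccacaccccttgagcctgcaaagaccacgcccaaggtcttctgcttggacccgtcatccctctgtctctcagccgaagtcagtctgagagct
Etfa: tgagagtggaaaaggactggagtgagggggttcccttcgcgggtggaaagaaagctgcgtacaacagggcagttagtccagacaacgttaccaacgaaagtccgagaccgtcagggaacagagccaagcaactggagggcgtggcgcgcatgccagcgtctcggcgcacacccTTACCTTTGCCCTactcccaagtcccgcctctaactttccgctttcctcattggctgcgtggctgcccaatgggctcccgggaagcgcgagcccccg
Slc25a20: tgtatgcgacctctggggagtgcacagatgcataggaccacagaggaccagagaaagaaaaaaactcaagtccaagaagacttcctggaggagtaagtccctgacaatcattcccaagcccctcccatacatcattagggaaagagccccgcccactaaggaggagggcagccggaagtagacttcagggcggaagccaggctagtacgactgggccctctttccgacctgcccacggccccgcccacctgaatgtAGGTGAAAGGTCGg
Fabp1: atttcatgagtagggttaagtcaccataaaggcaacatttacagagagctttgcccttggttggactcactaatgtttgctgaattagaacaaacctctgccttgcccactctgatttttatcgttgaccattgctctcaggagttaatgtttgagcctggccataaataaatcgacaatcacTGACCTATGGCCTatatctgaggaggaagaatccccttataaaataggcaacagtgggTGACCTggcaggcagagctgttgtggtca
Over all 26 windows, 4 held a hexamer (Cpt1a, Acadvl, Acadm and Fabp1), beside 16 percent of the 27025 windows of all genes. A DR1 match was found in 3 (Slc25a20, Etfa and Fabp1), beside 3.8 percent of all windows. A DR1 match at 2 mismatches may contain no exact hexamer, and the 1 of Fabp1 at -67 overlaps its hexamer there.

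Some libraries stood apart before any test. In liver, corylin male 3 held 9062 TPM of the summed macrophage and monocyte markers (18 genes) and corylin male 2 held 510.4, against 1619 to 3498 in old males. In quadriceps, young female 1, corylin male 3 (the same animal as that liver) and old female 1 held 5878, 2420 and 1701 TPM of 9 slow fibre markers, and the other 15 libraries 26.1 to 488. In kidney, old female 2 held 1375 TPM of 10 adipocyte markers and the others 118 to 334. All 15 hepatocyte markers found in the tables were detected in liver, where their sum was 121035 to 180573 TPM. In bulk tissue, fewer cells of a type cannot be told apart from less RNA per cell.

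In young mice the highest levels among the 32 genes belonged to the liver, where Fabp1 and the peroxisomal thiolase Acaa1b led. Per length, Fabp1 stood at 6305, 8726 and 14656 TPM (lowest, median and highest of 6 young livers), at 4.52, 35.6 and 99.8 in kidney and at 0, 0.511 and 0.859 in quadriceps. Acaa1b came to 1809, 2810.3 and 3791 TPM in liver, 654, 704 and 1196 in kidney and 0.0701, 0.300 and 3.23 in quadriceps. Both were near absent from muscle, and the young livers lay above every young kidney.

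Ehhadh, the bifunctional peroxisomal enzyme, was high in liver and kidney and low in muscle, with 933, 1474 and 1674 TPM in liver, 1458, 1682 and 1925 in kidney and 12.5, 14.1 and 40.2 in quadriceps. Acadvl, the first dehydrogenase of long chains, differed far less, with 718, 825 and 945 TPM in liver, 577, 632 and 742 in kidney and 369, 457 and 639.9 in quadriceps. Acadl, of the same family, was at 234, 304 and 382 TPM in liver, 356, 411 and 452 in kidney and 216, 267 and 511 in quadriceps, ranges that overlapped between all 3 tissues. The 2 thioesterases had opposite orders. Acot2, the mitochondrial form, was at 19.1, 33.1 and 50.7 TPM in liver and 71.9, 119 and 269 in quadriceps, whereas Acot1 was at 117, 149.7 and 232 and 3.08, 3.77 and 23.5. Cpt1b, the muscle form of the outer acyltransferase, was listed at 2.24, 4.17 and 6.97 TPM in quadriceps. Of its exon bases, 81.38 percent are shared with a readthrough gene on the same strand, so reads could be left uncounted and this low level is uncertain.

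With each animal as a block, the test between tissues placed 26 of the 32 genes higher and 3 lower in young liver than in young kidney (edgeR; 70.4 percent of 16179 genes passed, 31.8 percent higher and 38.6 percent lower). Levels in TPM stood 0.82 lower in this contrast on the log2 scale (median over the 32 genes), so 9 of the 29 calls had the opposite sign in TPM and 17 were higher on both scales. Between liver and quadriceps the scales gave the same signs for all calls, with 25 genes higher and 3 lower in liver (79.2 percent of all genes passed, 39.6 percent in each direction). The 3 that were higher in muscle were Cpt1b (-3.55 ± 0.40, adjusted p = 5.19e-07), Acot2 (-1.86 ± 0.20, 3.14e-07) and Ppargc1a (-1.15 ± 0.19, 3.03e-05), as liver minus quadriceps by edgeR. Kidney exceeded quadriceps in 21 genes and was lower in 8 (79.8 percent of all genes, 44.8 higher and 34.9 lower), of which Acadl, Acadvl and Slc25a20 had the opposite sign in TPM. The filter let a gene enter these tests between tissues through a tissue where it is high. Fabp1, Vnn1 and Acaa1b were near absent from quadriceps, Abcd2 from kidney and Cpt1b from liver. Their calls against those tissues are counted above but are descriptions only. Ppargc1a was highest in kidney, at 22.7, 42.5 and 54.6 TPM against 3.53, 4.66 and 9.07 in liver. Abcd2, a transporter of very long chains, was the reverse, with 0.132, 0.171 and 0.208 TPM in kidney and 3.77, 24.0 and 35.8 in liver.

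**Figure D1:**
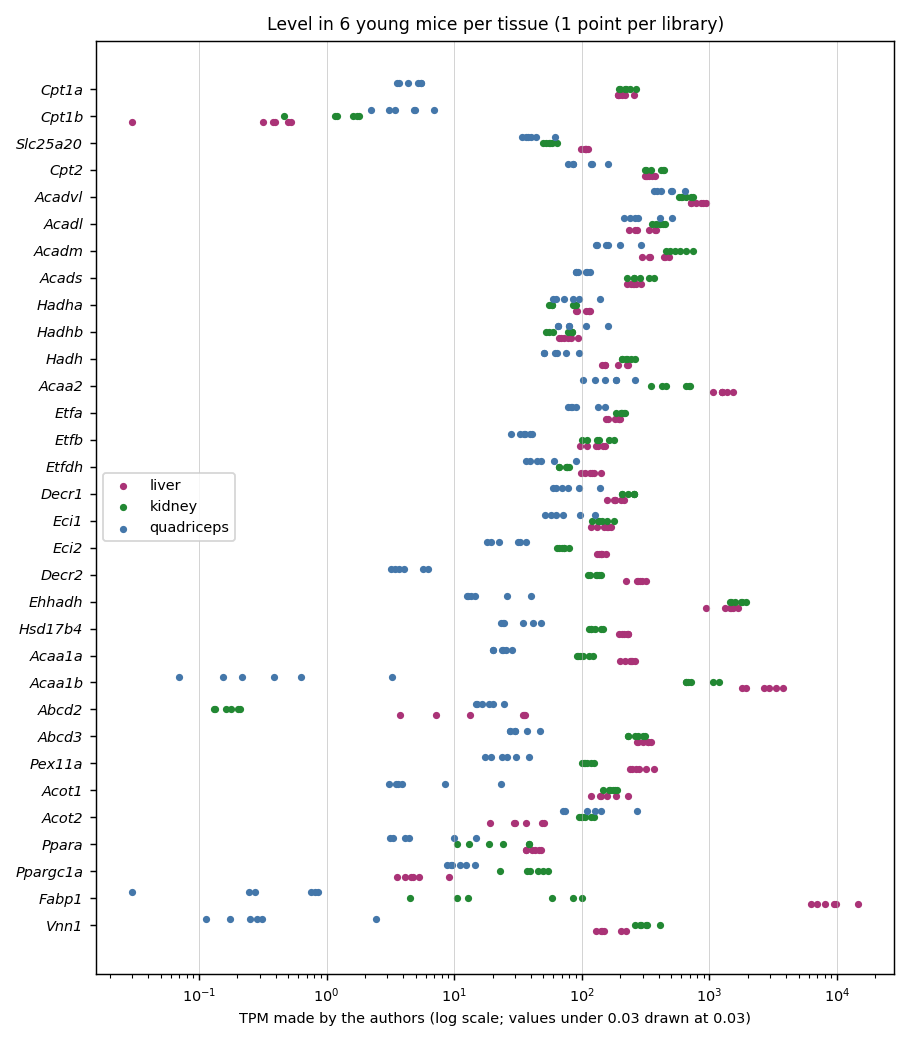
Level of each of the 32 genes in young liver, kidney and quadriceps, as TPM on a log axis with 1 point per library (6 per tissue). The 2 highest in liver were Fabp1 and Acaa1b, both under 4 TPM in every young quadriceps, whereas Acadvl differed far less between the tissues.

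In old female liver, 10 of the 32 genes fell and 0 rose relative to young females (edgeR; among all 15158 genes 9.27 percent passed, 5.54 percent higher and 3.73 percent lower). The median log2 fold change of the 32 genes was -0.52, and that of all genes tested was -0.01. For 22 of the 32 genes every old female lay below every young female in CPM, beside 17.6 percent of all genes. The lowest values were those of the thioesterase Acot1 and the peroxisomal genes Acaa1b, Pex11a and Ehhadh. The summed level of the genes without Fabp1 was 11521, 12403 and 10264 TPM in young females, 6917, 5365 and 4550 in old females and 9708, 9673 and 9406 in corylin females.

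Acot1, the cytosolic thioesterase, had the steepest decline. Its CPM were 221, 389 and 262 in young, 61.5, 29.1 and 46.2 in old and 121, 122 and 114 in corylin females. Males had 236, 319.9 and 206 in young, 169, 81.5 and 119.9 in old and 90.3 and 15.8 in corylin males. In each sex all old livers lay under all young ones, and the age change was -2.67 ± 0.50 in females (edgeR adjusted p = 0.00997) and -1.04 ± 0.48 in males (0.247). Of the 100-base windows of Acot1, 12.49 percent also occur in Acot2 or Acot5, so part of its reads may be shared. Acaa1b, which ends the peroxisomal spiral, had CPM of 2085, 2802 and 1599 in young, 945, 294 and 411 in old and 1407, 1234 and 1108 in corylin females. In males it had 2501, 3299 and 1587 in young, 929, 725 and 1118 in old and 1157 and 438 in corylin males. Old mice lay below young mice in each sex, with -1.98 ± 0.44 in females (edgeR adjusted p = 0.0201) and -1.41 ± 0.43 in males (0.117). The near copy Acaa1a and the opposite-strand gene Dlec1 share 30.5 percent of its windows.

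Ehhadh, the peroxisomal bifunctional enzyme, fell in females. Its CPM in females were 1824, 2133 and 1664 in young, 723, 633 and 329.6 in old and 1410.3, 1481 and 1612 in corylin females. Male CPM were 1919, 1926 and 1244 in young, 1730.5, 1406 and 1867 in old and 1053 and 447 in corylin males. Old females were separated from young ones while old males lay among the young, and the change was -1.74 ± 0.32 in females (edgeR adjusted p = 0.00876) and -0.02 ± 0.31 in males (0.979). The test of the difference between the sexes gave -1.71 ± 0.44 and did not pass (edgeR adjusted p = 0.229). Pex11a, which drives peroxisome division, had CPM of 359, 431 and 325 in young, 116, 102 and 112 in old and 163, 226 and 269 in corylin females. Its male values were 369, 519 and 355 in young, 214, 129 and 208 in old and 206 and 115 in corylin males. Every old liver was below every young one of its sex, by -1.75 ± 0.26 in females (edgeR adjusted p = 0.00438) and -1.17 ± 0.26 in males (0.079).

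In the mitochondrial spiral Acadm, which starts the oxidation of medium chains, was the only gene of 8 that passed in females. Its CPM were 749, 737 and 738 in young, 264, 280.3 and 386 in old and 457, 662 and 569 in corylin females. In males they were 504, 589.6 and 592 in young, 396, 420.1 and 445 in old and 589 and 295 in corylin males. The young females were tightly grouped and far above the old ones, with -1.26 ± 0.23 (edgeR adjusted p = 0.00859), against -0.42 ± 0.23 in males (0.323). The thiolase Acaa2 showed 763, 896 and 989.6 in young, 617, 594 and 545 in old and 828, 774 and 664 in corylin females. For males the values were 828, 846 and 728 in young, 515, 485 and 547 in old and 732 and 446 in corylin males. Its decline of -0.59 ± 0.18 in females did not pass (edgeR adjusted p = 0.052), although no old liver reached a young one of its sex. The remaining 6 genes of the spiral had female changes from -0.66 (Hadh) to -0.27 (Acads).

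In the carnitine shuttle the carrier Slc25a20 and the inner enzyme Cpt2 fell. Slc25a20 CPM were 214, 224 and 204 in young, 139, 135 and 111 in old and 166, 163 and 167 in corylin females. Those of males were 220.3, 229.9 and 230.3 in young, 156, 149.7 and 166 in old and 185 and 95.9 in corylin males. Young livers of each sex were tightly grouped and above all old ones. Cpt2 had 341, 325 and 316 in young, 206, 188 and 165 in old and 276, 238 and 214 in corylin females. The male Cpt2 values were 347, 398 and 345 in young, 256, 244 and 240.5 in old and 267 and 115 in corylin males. For both genes the old mice of each sex lay below the young, with female changes of -0.73 ± 0.18 and -0.81 ± 0.22 (edgeR adjusted p = 0.0261 and 0.0368). Cpt1a, which controls entry into the shuttle, showed -0.10 ± 0.18 in females (edgeR adjusted p = 0.767). Of the electron transfer genes, Etfa and Etfdh fell, with -0.69 ± 0.20 and -0.86 ± 0.23 (edgeR adjusted p = 0.0405 and 0.0362). Etfb, at 61.6, 73.1 and 64.1 in young, 44.1, 51.6 and 56.2 in old and 69.4, 57.3 and 53.6 in corylin females, did not pass (-0.39 ± 0.19, edgeR adjusted p = 0.189), and 58.25 percent of its exon bases overlap other genes on its strand.

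The receptor gene Ppara was itself lower in old females. Its CPM were 70.0, 59.7 and 70.5 in young, 57.3, 37.8 and 33.9 in old and 58.8, 66.9 and 58.7 in corylin females. In males they were 67.6, 61.9 and 82.4 in young, 49.3, 51.4 and 43.4 in old and 59.0 and 43.3 in corylin males. No old liver reached a young one of its sex, and the change was -0.63 ± 0.18 in females (edgeR adjusted p = 0.0443) and -0.56 ± 0.18 in males (0.131). Fabp1 varied within groups, with 2070.0, 3464 and 2289.5 in young, 4124, 1540.1 and 441 in old and 2684, 1255 and 945 in corylin females, and its change of -0.36 ± 0.59 did not pass (edgeR adjusted p = 0.731). Male Fabp1 values were 1923, 1705 and 1559 in young, 936, 619.6 and 757 in old and 1044 and 533 in corylin males. Old female 1 had the most Fabp1 of all livers and old female 3 the least.

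**Figure D2:**
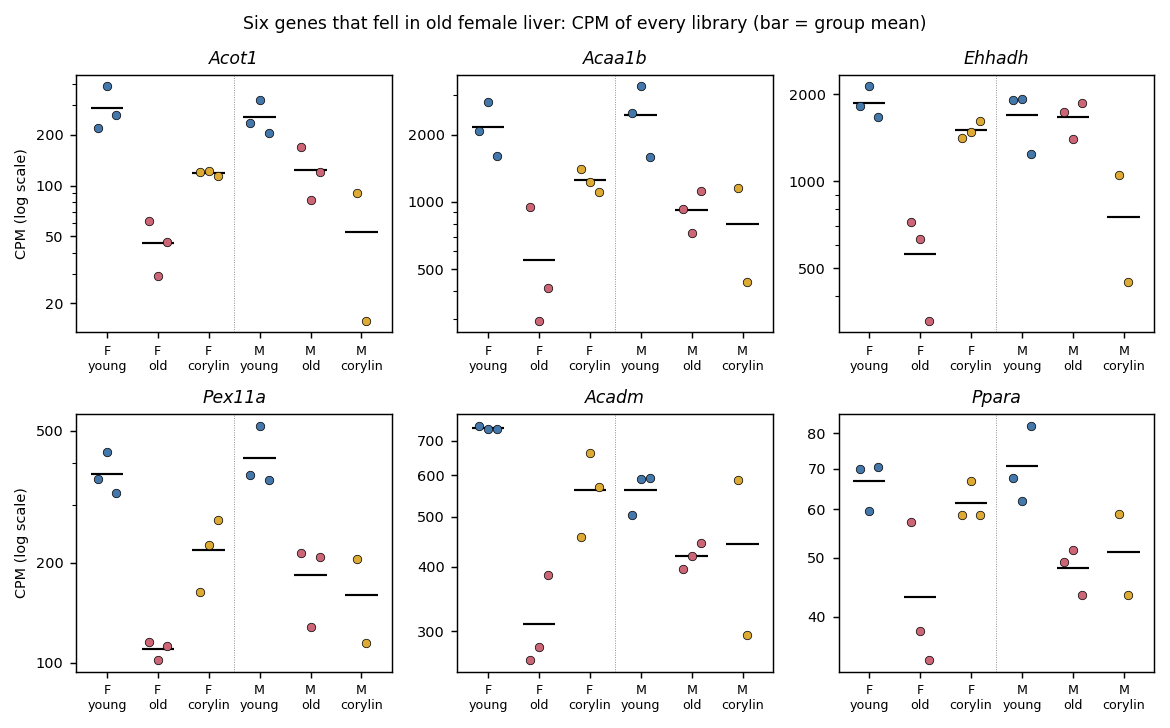
CPM of 6 genes that fell in old female liver, on log axes, with 1 point per library and a bar at each group mean (3 libraries per group, 2 for corylin males). Old females lie below young females for all 6, by which they were chosen, and corylin females lie above old females for all 6. The diet comparison uses the same old libraries, so this choice favours higher corylin values. In female liver corylin passed for 0 of the 32 genes (edgeR, 0.152 percent of all genes passed).

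The female calls differed in how far they rested on single libraries. Pex11a, Acadm and Ehhadh passed in all 6 fits that left out 1 young or old female, and Acot1 in 5, with an edgeR adjusted p of 0.0537 without old female 2. The call of Acaa1b was lost without old female 2 (0.0756), young female 1 (0.0563) or young female 2 (0.0794). Ppara passed only without old female 1, with an adjusted p of 0.0883 to 0.183 in the other 5 fits. Slc25a20, Cpt2, Etfa and Etfdh passed in 0 of 6 such fits, at 0.0574 to 0.166. The count of 10 became 3 without old female 2, 5 without old female 3, and 4, 4 and 5 without young female 1, 2 or 3. The letter B or R in the library name, whose meaning the labels do not give, is tied to age: all young libraries were B, and the 12 R libraries were old or corylin. With the letter as a covariate Etfa lost its call (edgeR adjusted p = 0.0568). The authors' deposited table, which adjusts its own p-values, listed 13 of the 32 genes as lower and 0 as higher in old females, with 15.1 percent of its genes past the same threshold.

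In old male liver 0 of the 32 genes passed (edgeR; 0.211 percent of all genes passed). At an unadjusted p under 0.05 there were 15 of 32, beside 19.5 percent of all genes, and DESeq2 called 5, all lower. The median log2 fold change was -0.51, 28 of the 32 values were negative, and for 26 genes every old male lay below every young male, beside 15.3 percent of all genes. Averaged over the sexes, 19 of the 32 fell and 0 rose (edgeR; 19.1 percent of all genes passed, 10.9 percent higher and 8.27 percent lower). To the female list this added Acaa2 (-0.61 ± 0.13), Hadh (-0.64 ± 0.15), Acaa1a (-0.63 ± 0.15), Etfb (-0.51 ± 0.13), Eci1 (-0.61 ± 0.16), Eci2 (-0.47 ± 0.13), Abcd3 (-0.56 ± 0.16), Acads (-0.42 ± 0.13) and Hadhb (-0.42 ± 0.13), with edgeR adjusted p from 0.00704 (Acaa2) to 0.0399 (Hadhb). Eci1, an isomerase for unsaturated chains, had CPM of 144, 145 and 136 in young, 127, 84.8 and 67.6 in old and 132, 130.5 and 119 in corylin females and of 109, 148 and 125 in young, 81.2, 76.0 and 91.5 in old and 104 and 55.0 in corylin males. Of the 19 genes 10 passed in all 12 fits without 1 library. The count of 19 was 12 without old female 2, old female 3, young female 3 or young male 3, 11 without old male 2 and 10 without young male 2. With the library letter as a covariate Abcd3 (edgeR adjusted p = 0.0621), Acads (0.085), Etfa (0.065), Etfdh (0.112) and Hadhb (0.0773) lost their averaged calls. The difference of the age change between the sexes passed for 0 of the 32 (edgeR, 4 with p under 0.05 before adjustment, beside 8.62 percent of all genes; 1 by DESeq2; 0 percent of all genes).

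Markers of other cell types also shifted in the same livers. Macrophage and monocyte markers (18 genes) summed to 387 to 658 TPM in young females and 2112 to 3097 in old females, and to 297 to 443 and 1619 to 3498 in young and old males. Neutrophil markers (10 genes) summed to 25.9 to 299.9 and 280.4 to 2031 TPM in young and old females. T and NK cell markers (11 genes) summed to 9.68 to 10.4 TPM in young and 28.1 to 43.6 in old females, and to 4.67 to 7.54 and 13.3 to 46.1 in young and old males. Endothelial markers summed to 107 to 126 and 134 to 148 TPM in young and old females. The sum of the 10 adipocyte markers was lower in old livers, at 336 to 1044 TPM in young and 35.6 to 55.2 in old females. In males it came to 834 to 1189 and 153 to 252 in young and old livers. Most of that sum was Car3, a carbonic anhydrase, at 299 to 989 TPM in young and 2.91 to 34.7 in old females, whereas Adipoq, Plin1 and Lep were at 0 to 0.191 TPM in every liver. Hepatocyte markers summed to 151738 to 180573 TPM in young and 126639 to 160791 in old females, which overlap. The part of these shifts in the lower levels was not tested.

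Corylin against old passed for 0 of the 32 genes in female liver (edgeR; 0.152 percent of all genes passed). There were 7 of 32 at an unadjusted p under 0.05, beside 15.8 percent of all genes, and DESeq2 called 3, all higher in corylin females. The median log2 fold change was 0.28 and that of all genes 0.03, and 29 of the 32 values were positive. For 13 genes every corylin female lay above every old female, beside 10 percent of all genes. Ehhadh, with the values above, came to 1.42 ± 0.32 (95 percent interval 0.79 to 2.04; edgeR adjusted p = 0.0729), Pex11a to 0.99 ± 0.26 (0.0998), Acadm to 0.86 ± 0.23 (0.1), Acot1 to 1.38 ± 0.48 (0.183) and Acaa1b to 1.18 ± 0.43 (0.201). These genes had been called lower with age in the same old libraries, which favours higher values here. Without old female 3, 1 of the 32 passed. The authors' deposited table listed 3 of the 32 as higher and 0 as lower in corylin females, with 3.75 percent of its genes past the threshold. Macrophage markers, at 2414 to 3391 TPM in corylin females, overlapped those of old females. T and NK cell markers did not, at 54.4 to 120 TPM in corylin and 28.1 to 43.6 in old females, nor did adipocyte markers, at 204 to 436 and 35.6 to 55.2, of which Car3 made up 144 to 380 and 2.91 to 34.7. In males adipocyte markers summed to 284 and 631 TPM with corylin against 153 to 252 in old livers. Without Car3 these male sums overlapped, at 56.0 and 206 TPM with corylin and 77.9 to 209 in old livers. The part of these markers in the diet values was not tested.

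In male liver the same comparison gave 0 of 32 (edgeR; 0.0594 percent of all genes passed; 3 with p under 0.05 before adjustment, beside 10.7 percent of all genes; 0 by DESeq2), with a median of -0.17. The 2 corylin males were far apart: the summed level without Fabp1 was 7992 TPM in corylin male 2 and 5379 in corylin male 3, against 7848, 6785 and 8909 in old males. Ehhadh came to -1.15 ± 0.36 (edgeR adjusted p = 0.313) and Acot1 to -1.22 ± 0.55 (0.458). A fit without corylin male 2 or 3 leaves 1 library in that group, so no count is taken from it. Corylin male 3 is the library with the most macrophage marker RNA, and the part of this in its values was not tested. The difference of the diet change between the sexes passed for 0 of 32 (edgeR, 0 percent of all genes). Before adjustment 7 had p under 0.05, beside 6.81 percent of all genes, and DESeq2 called 1. Averaged over the sexes, 0 of 32 passed (edgeR, 1.07 percent of all genes). Before adjustment 4 had p under 0.05, beside 19.1 percent of all genes, and DESeq2 called 0.

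**Figure D3:**
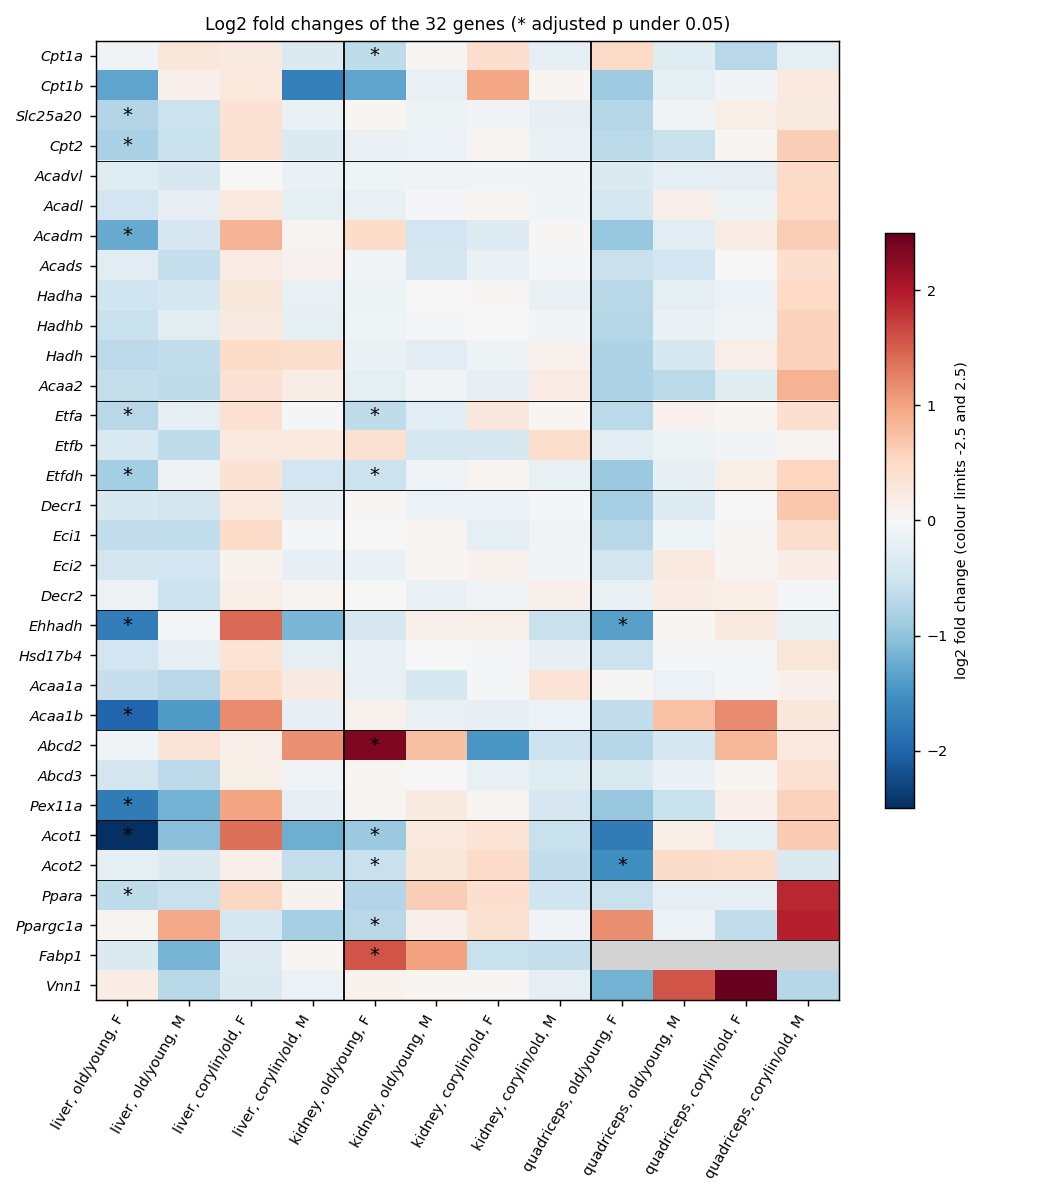
Log2 fold changes of the 32 genes (rows, in order of role) for old against young and corylin against old in each tissue and sex (columns), in blue for lower and red for higher, with a star where the edgeR adjusted p was under 0.05. The stars stand in old females, with 10 in liver, 8 in kidney and 2 in quadriceps, and the male and corylin columns have 0. All genes were split alike, with 9.27, 10.8 and 6.67 percent passing in old females and 0.211, 0.111 and 0 percent in old males. With corylin 0 to 0.152 percent passed. The sex difference of the age change passed for 0 of the 32 in liver and kidney and 0 of 31 in quadriceps. Nothing is read from the star of Abcd2 in kidney. Fabp1 was not tested in quadriceps and is grey there.

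In old female kidney 6 of the 32 genes fell and 2 had a higher call (edgeR; 10.8 percent of 17174 genes passed, 3.16 percent lower and 7.69 percent higher). The genes that fell were the rate-setting acyltransferase Cpt1a, the electron carriers Etfa and Etfdh, both thioesterases and the coactivator Ppargc1a. Those with higher calls were Fabp1 and Abcd2. Nothing is read from the call of Abcd2, because in 0 of 6 young kidneys did it reach the level of the filter on low counts, 0.582 CPM, and it entered the test through the other groups. The median of the 32 log2 fold changes was -0.14, and the summed level without Fabp1 was 8218, 8412 and 8454 TPM in young and 7484, 8664 and 7489 in old females, which overlap.

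Acot1 CPM in kidney were 263, 235 and 243 in young, 101, 140.2 and 149.5 in old and 132, 171 and 194 in corylin females. Males had 328, 316 and 242 in young, 328, 356 and 372 in old and 208, 302 and 208 in corylin males. All old females lay below all young ones and all old males above the young males, with -0.92 ± 0.18 in females (edgeR adjusted p = 0.00373) and 0.25 ± 0.18 in males (0.664). The difference between the sexes was -1.18 ± 0.26 and did not pass (edgeR adjusted p = 0.0699). Acot2 had 101, 92.9 and 84.1 in young, 60.9, 72.0 and 57.2 in old and 77.8, 102 and 84.5 in corylin females. In males it had 99.8, 98.4 and 92.7 in young, 119.9, 121 and 113 in old and 68.5, 98.4 and 63.5 in corylin males. Its female change was -0.55 ± 0.15 (edgeR adjusted p = 0.0245), and old males lay above young males without passing (0.29 ± 0.15, 0.514).

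Cpt1a had CPM of 556, 659.8 and 641 in young, 379, 369.7 and 449.9 in old and 456, 557 and 593 in corylin females. Its male values were 712, 727 and 869 in young, 797, 736 and 837 in old and 557, 755 and 711 in corylin males. The female groups did not overlap (-0.63 ± 0.15, edgeR adjusted p = 0.00976), and the male groups did (0.04 ± 0.15, 0.951). For Etfa the CPM were 139, 144 and 143 in young, 75.0, 94.1 and 106 in old and 94.9, 109 and 129 in corylin females. In males they were 163, 166 and 158 in young, 138, 129 and 131 in old and 126, 124 and 165 in corylin males. Old kidneys lay below young ones in each sex, by -0.63 ± 0.14 in females (edgeR adjusted p = 0.00699) and -0.29 ± 0.14 in males (0.454). Etfdh had 183, 204 and 218 in young, 126, 144 and 148 in old and 133, 149.8 and 157 in corylin females. The male Etfdh values were 234, 245 and 255 in young, 218, 230.5 and 234 in old and 177, 238 and 185 in corylin males. These gave -0.53 ± 0.12 in females and -0.10 ± 0.12 in males (edgeR adjusted p = 0.0091 and 0.811).

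Ppargc1a, the coactivator of PPARα and of mitochondrial genes, stood at 109.9, 118 and 138 in young, 67.0, 58.6 and 101 in old and 95.8, 84.3 and 115 in corylin females. In males it stood at 71.0, 105 and 110.2 in young, 90.6, 103 and 119 in old and 92.1, 102 and 99.0 in corylin males. Each old female was below each young one (-0.69 ± 0.20, edgeR adjusted p = 0.0315), and the male groups overlapped (0.13 ± 0.19, 0.855). Fabp1 rose in female kidney, from low levels. Its CPM were 11.8, 19.8 and 18 in young, 41.0, 79.0 and 27.9 in old and 34.6, 29.0 and 36.5 in corylin females. In males they were 2.76, 3.02 and 1.06 in young, 3.48, 7.64 and 2.89 in old and 3.63, 3.86 and 1.36 in corylin males. The female change was 1.57 ± 0.40 (edgeR adjusted p = 0.0172), and among young mice females exceeded males by 2.84 ± 0.46 (0.00085). Abcd2 was barely detected, at 0.452, 0.350 and 0.405 in young, 0.867, 3.77 and 1.52 in old and 0.639, 0.381 and 1.16 in corylin females. Male values were 0.372, 0.511 and 0.335 in young, 0.785, 0.706 and 0.579 in old and 0.748, 0.154 and 0.454 in corylin males. The 6 young kidneys held 6 to 11 reads of it each. Old female 2, the kidney with the high adipocyte markers, had the most Abcd2 and Fabp1, and without it the edgeR adjusted p was 0.0974 for Fabp1. The part of adipocyte RNA in these values was not tested.

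**Figure D4:**
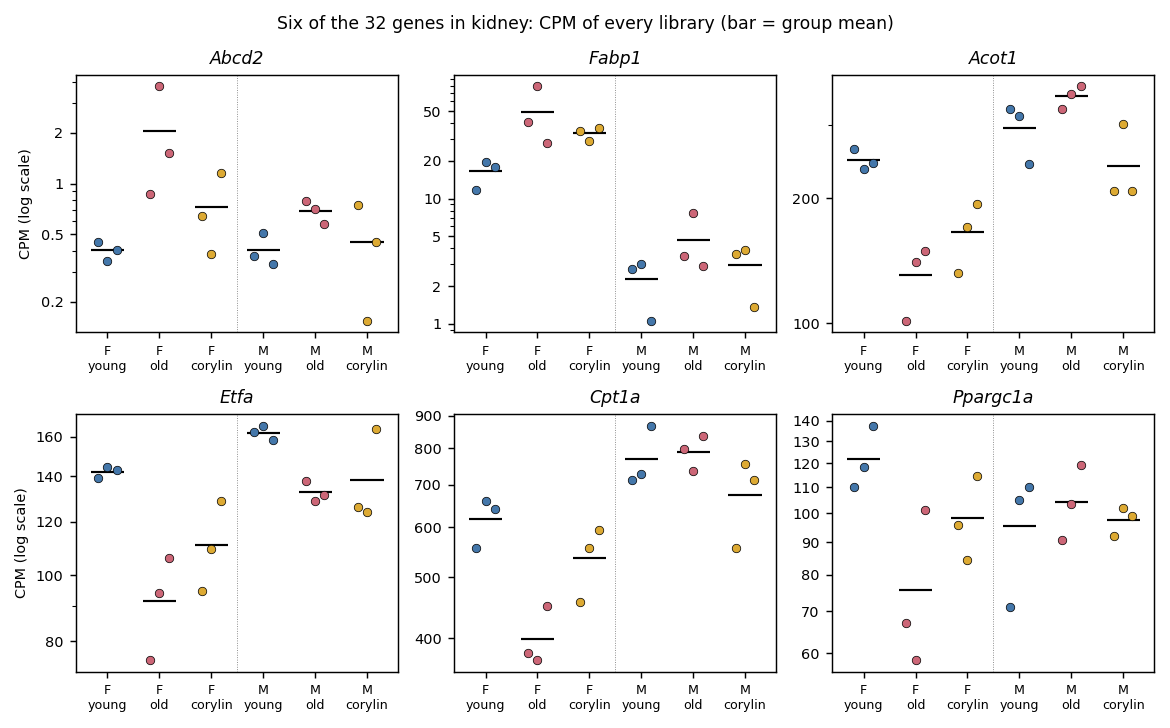
CPM of 6 genes in kidney, on log axes, with 1 point per library and a bar at each group mean (3 libraries per group). Old females lie above young females for Fabp1 and below them for Acot1, Etfa, Cpt1a and Ppargc1a. Abcd2 is drawn as a description only. Nothing is read from it, because it stayed under the level of the filter on low counts, 0.582 CPM, in every young kidney.

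Acot1, Etfa and Cpt1a passed in all 6 fits without 1 young or old female kidney. Etfdh lost its call without young female 3 (edgeR adjusted p = 0.0516), and Fabp1 also without young female 1 (0.0757) or 3 (0.0553). Acot2 passed in 2 of 6 fits, with 0.0803, 0.063, 0.0892 and 0.0698 without old female 1, old female 3, young female 1 or young female 2. Ppargc1a also passed in 2, with 0.116, 0.0973, 0.0718 and 0.128 without old female 1, old female 2, young female 2 or young female 3. The count of 8 was 5 without young female 2 or 3. Macrophage markers summed to 254 to 476 TPM in young and 1506 to 2364 in old female kidneys. The lists that follow were also higher in every old than in every young female kidney. Neutrophil markers (10 genes) summed to 10.1 to 24.7 TPM in young and 170.3 to 512 in old females, and B and plasma cell markers (9 genes) to 1651 to 2474 and 2643 to 6670. T and NK cell markers lay at 15.8 to 28 and 43.3 to 61.3 TPM, and adipocyte markers at 136 to 153 and 167 to 1375. The 6 genes listed for cholangiocytes summed to 2367 to 2959 TPM in young and 6162 to 17323 in old females, and 6 podocyte markers to 190.4 to 191.8 and 243 to 369. Proximal tubule markers (18 genes) overlapped between young and old females, at 30006 to 39077 and 32247 to 49984 TPM. In males they did not, at 84414.5 to 103072 TPM in young and 41632 to 58878 in old kidneys. Macrophage markers (192 to 265 and 498 to 680 TPM) and neutrophil markers (9.21 to 11.8 and 34.3 to 73.7) were higher in every old than in every young male. The part of these markers in the changes was not tested.

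The other genes did not pass in female kidney. Acadm had CPM of 944, 830.0 and 1116 in young, 1269.8, 1562 and 1135 in old and 1252, 907 and 995 in corylin females and 0.46 ± 0.17 (edgeR adjusted p = 0.0989). Its male values were 913, 893 and 764 in young, 643, 562 and 635 in old and 554, 752 and 564 in corylin males, with -0.48 ± 0.17 (0.275), so old females lay above and old males below the young of their sex. Ehhadh had 1604, 1933 and 1827 in young, 1705, 1102 and 1218 in old and 1439.6, 1462 and 1562 in corylin females (-0.41 ± 0.19, edgeR adjusted p = 0.192). Male Ehhadh was at 2057, 2436 and 2227 in young, 2175, 2444 and 2692 in old and 1366, 2221 and 1415 in corylin males. Eci2, a peroxisomal and mitochondrial isomerase, had 130.3, 145 and 169.7 in young, 109, 144 and 145 in old and 127, 138 and 164 in corylin females (-0.16 ± 0.13, edgeR adjusted p = 0.488). Cpt1b, near the limit of detection, had 2.0, 2.1 and 2.31 in young, 0.982, 0.114 and 1.42 in old and 1.28, 1.53 and 2.19 in corylin females (-1.32 ± 0.51, edgeR adjusted p = 0.115).

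In old male kidney 0 of 32 passed (edgeR; 0.111 percent of all genes; 6 with p under 0.05 before adjustment, beside 10.9 percent of all genes; 0 by DESeq2). Averaged over the sexes 2 fell, Etfa (-0.46 ± 0.10, edgeR adjusted p = 0.00588) and Etfdh (-0.32 ± 0.09, 0.0267), and Fabp1 rose (1.29 ± 0.31, 0.0132), with Abcd2 as a further call from which nothing is read, beside 8.86 percent of all genes, 6.64 percent higher and 2.22 percent lower. This count of 4 was 7 without old female 2 and 2 without young female 2 or old male 2. The sex difference of the age change passed for 0 of 32 (edgeR; 0.0932 percent of all genes; 7 with p under 0.05 before adjustment, beside 14.5 percent of all genes; 4 by DESeq2), and for 3 without old female 3.

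Corylin passed for 0 of 32 genes in kidney of females (edgeR; 0.0582 percent of all genes; 3 with p under 0.05 before adjustment, beside 12 percent of all genes; 0 by DESeq2), with a median of -0.02. Proximal tubule markers were lower in these kidneys, at 16619 to 18621 TPM against 32247 to 49984 in old females, and macrophage markers at 706 to 1157 against 1506 to 2364, and their part was not tested. In males it also passed for 0 (0.0699 percent; 4 with p under 0.05 before adjustment, beside 7.25 percent of all genes; 2 lower by DESeq2), with a median of -0.12, and for 1 without kidney corylin male 2. Averaged over the sexes it passed for 0 (0.0641 percent of all genes; 3 with p under 0.05 before adjustment, beside 9.63 percent of all genes; 0 by DESeq2). Acot2 in males, at -0.62 ± 0.15, was the member with the lowest value of these male changes (edgeR adjusted p = 0.189). Its female change was 0.48 ± 0.15, and the difference between the sexes was 1.10 ± 0.21 (edgeR adjusted p = 0.142). This difference passed for 0 of 32 (edgeR; 0.00582 percent of all genes; 5 with p under 0.05 before adjustment, beside 9.95 percent of all genes; 2 by DESeq2) and for 1 without kidney corylin male 2.

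Young females and males differed in 4 of the 32 genes in kidney (edgeR; 6.25 percent of all genes, 2.37 percent higher and 3.88 percent lower in females). Besides Fabp1, higher in females, Cpt2 (-0.65 ± 0.16, adjusted p = 0.022), Acads (-0.68 ± 0.19, 0.0439) and Pex11a (-0.38 ± 0.10, 0.0239) were lower in females by edgeR. The count was 1 without any one of young females 1, 2 and 3 or young males 1 and 2, and Fabp1 passed in all 6 such fits. In liver 1 gene differed, Abcd2, higher in females by 2.03 ± 0.37 (edgeR adjusted p = 0.0131; 1.28 percent of all genes passed, 0.528 percent higher and 0.752 percent lower). Its CPM in young livers were 84.9, 90.2 and 87.3 in young females and 9.67, 18.8 and 35.6 in young males, and the call was lost without young male 2 (0.0857). In quadriceps 0 of 31 passed (edgeR; 1.2 percent of all genes; 5 with p under 0.05 before adjustment, beside 17.7 percent of all genes; 1 by DESeq2).

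In quadriceps 31 of the 32 genes were tested, Fabp1 being too low. In old females 2 fell and 0 rose (edgeR; 6.67 percent of 14173 genes passed, 4.5 percent higher and 2.17 percent lower). The 31 genes had a median of -0.69, 28 values were negative and 16 had an unadjusted p under 0.05, beside 26.2 percent of all genes. Their summed level was highest in the 2 libraries with the most slow fibre marker RNA. Young female 1 (5878 TPM of slow fibre markers) had 3555 TPM of the 31 genes, and corylin male 3 (2420) had 3408. Old female 1 (1701) had 2460, within the 1627 to 2681 of the other 15 libraries. The part of slow fibres in the results below was not tested beyond the fit that leaves these 3 libraries out.

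**Figure D5:**
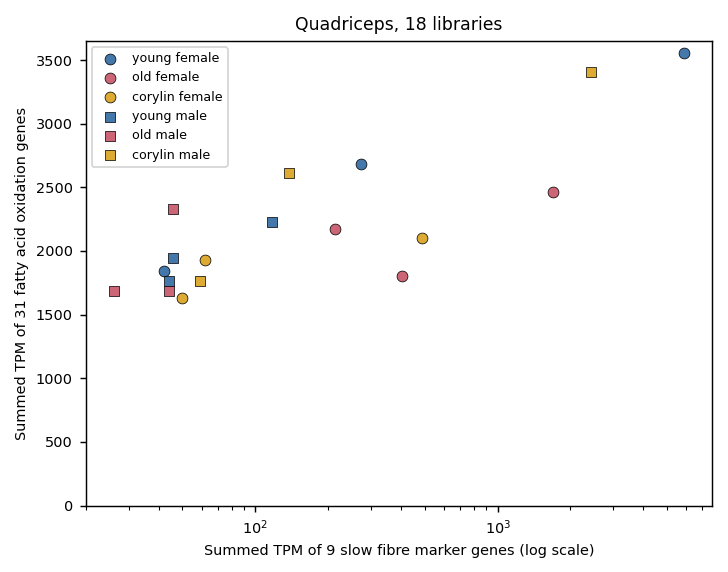
Summed TPM of the 31 fatty acid oxidation genes tested in quadriceps (y axis, from 0) against the summed TPM of 9 slow fibre markers (x axis, log scale), 1 point per library, coloured by condition with circles for females and squares for males. Young female 1 and corylin male 3 are highest on the y axis, and are the 2 libraries with the most slow fibre marker RNA.

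Acot2, the mitochondrial thioesterase, fell in old female muscle. Its CPM were 234, 105 and 109 in young, 55.8, 59.0 and 39.7 in old and 65.7, 57.8 and 84.9 in corylin females. Males had 104, 67.1 and 65.5 in young, 85.3, 150.4 and 90.6 in old and 49.5, 97.8 and 107 in corylin males. All old females lay below all young females (-1.54 ± 0.36, edgeR adjusted p = 0.0285), and the male groups overlapped (0.46 ± 0.35, 0.497). The difference between the sexes, -2.0 ± 0.50, did not pass (0.0765, edgeR). Ehhadh also fell. Its CPM were 47.4, 26.3 and 15.1 in young, 13.5, 12.7 and 8.64 in old and 11.5, 12.8 and 17.3 in corylin females. In males they were 18.6, 16.6 and 15.5 in young, 14.5, 22.8 and 15 in old and 13.2, 17.7 and 15.5 in corylin males. Young female 1 was the highest of all, and the female change was -1.35 ± 0.32 (edgeR adjusted p = 0.0304). Without young female 1 the adjusted p was 0.111 for Acot2 and 0.118 for Ehhadh. Both calls were also lost without young female 2 (0.0526 and 0.0555) or old female 3 (0.133 and 0.14), a muscle with 2976 TPM of macrophage markers against 221 and 269.9 in the other old females and 54.7 to 131 in young ones. With the library letter as a covariate they were lost as well (edgeR adjusted p = 0.06 for Acot2 and 0.069 for Ehhadh). In a fit chosen after seeing the data, without the 3 libraries high in slow fibre markers, they were -1.12 and -0.96 and did not pass.

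The next genes by adjusted p were not called. Abcd2 had CPM of 34.6, 50.2 and 35.3 in young, 35.9, 21.8 and 15.9 in old and 48.2, 43.2 and 38.5 in corylin females and -0.71 ± 0.22 with age (edgeR adjusted p = 0.0655). Pex11a had 48.9, 32.9 and 21.8 in young, 28.0, 13.7 and 11.8 in old and 20.2, 16.9 and 21.4 in corylin females, and Hadh had 186, 129 and 98.4 in young, 98.8, 80.6 and 61.4 in old and 71.9, 93.5 and 104 in corylin females, with -0.95 ± 0.33 and -0.78 ± 0.27 (0.0857 and 0.0922, edgeR). Acadm, at 448, 264 and 199 in young, 223, 151 and 98.3 in old and 153, 166 and 215 in corylin females, came to -0.95 ± 0.35 (edgeR adjusted p = 0.104). In each of Pex11a, Hadh and Acadm young female 1 was the highest young female and old female 1 the highest old one. Slc25a20, Hsd17b4, Etfdh and Decr1 came to -0.71, -0.54, -0.93 and -0.83, with edgeR adjusted p from 0.0904 (Slc25a20) to 0.116 (Decr1). Ppargc1a went the other way, with 38.1, 28.0 and 24.7 in young, 39.0, 65.2 and 99.0 in old and 22.7, 27.5 and 83.3 in corylin females and, in males, 31.2, 23.7 and 25.6 in young, 26.3, 21.5 and 24.4 in old and 25.2, 42.1 and 212 in corylin males. Corylin male 3 stood far above the rest, and neither the female age change (1.16 ± 0.63, edgeR adjusted p = 0.262) nor the male diet change (1.95 ± 0.65, 0.4) passed. Vnn1 was near the limit of detection, with 0.238, 2.0 and 0.294 in young, 0.605, 0.349 and 0.159 in old and 3.90, 1.90 and 0.390 in corylin females.

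The female count of 2 became 9 without old female 1 and 0 without old female 3, young female 1 or young female 2. In old males 0 of 31 passed (edgeR; 0 percent of all genes; 0 of the 31 with p under 0.05 before adjustment, beside 18.3 percent of all genes; 0 by DESeq2). Averaged over the sexes 0 passed (edgeR; 3.59 percent of all genes; 13 with p under 0.05 before adjustment, beside 25.6 percent of all genes; 3 by DESeq2), but 7 passed without old female 1, 2 without young female 3 and 5 without the 3 libraries high in slow fibre markers, all lower. The sex difference passed for 0 (edgeR; 0.226 percent of all genes; 3 with p under 0.05 before adjustment, beside 20.1 percent of all genes; 2 by DESeq2) and for 1 without old female 2. Corylin against old gave 0 of 31 in females (edgeR; 0 percent of all genes; 3 with p under 0.05 before adjustment, beside 17.4 percent of all genes; 1 by DESeq2) and 0 in males (0 percent of all genes; 5 with p under 0.05 before adjustment, beside 9.74 percent of all genes; 0 by DESeq2), with medians of 0.04 and 0.42. In females 1 passed without old female 1 or without old female 2. Averaged, 0 passed (0 percent of all genes; 2 with p under 0.05 before adjustment, beside 7.98 percent of all genes; 0 by DESeq2), and 1 without old female 1. The sex difference gave 0 (edgeR; 0 percent of all genes; 4 with p under 0.05 before adjustment, beside 19.7 percent of all genes; 0 by DESeq2), and 1 without old female 1.

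The age change differed between female liver and female kidney for 3 of the 32 genes, all lower in liver (edgeR with the animal as a block; 1.52 percent of 18970 genes passed, 0.843 percent higher and 0.675 percent lower). These were Pex11a (-1.83 ± 0.37, adjusted p = 0.00895), Abcd2 (-2.50 ± 0.63, 0.0379) and Acadm (-1.70 ± 0.44, 0.0465), by edgeR. Abcd2 had 6 to 7 reads in each young female kidney, and its value is given as a description. In fits without 1 animal, Pex11a passed in 4 of 6 (adjusted p up to 0.0701), Abcd2 in 1 of 6 (up to 0.265) and Acadm in 1 of 6 (up to 0.214). The count of 3 was 0 without old female 2 or young female 2 and 1 without young female 1 or 3. In males 0 of 32 differed (edgeR; 0.0685 percent; 3 with p under 0.05 before adjustment, beside 7.16 percent of all genes; 0 by DESeq2). Between liver and quadriceps 0 of 32 differed in females (1.85 percent of all genes; 2 with p under 0.05 before adjustment, beside 14.4 percent of all genes; 0 by DESeq2) and 0 in males (1.28 percent of all genes; 3 with p under 0.05 before adjustment, beside 14.9 percent of all genes; 0 by DESeq2).

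Genes that surround the pathway were read from 4 further lists. By mean TPM over the livers, the phytanoyl-CoA hydroxylase Phyh (1631) led the other oxidation enzymes, Cyp4a14 (6045) and Cyp4a10 (3246) the PPARα targets, and the receptors Hnf4a (367) and Rxra (205) the transcription partners. In kidney the fatty acid transporter and synthetase Slc27a2 (1992), Cyp4a10 (2303) and Hnf4a (364) led, and in quadriceps Crat (248), Pdk4 (4091) and Lpin1 (175). Of 34 other fatty acid oxidation enzymes, 6 fell and 2 rose in old female liver (edgeR; median -0.47), where among all genes 3.73 percent fell and 5.54 percent rose. The carnitine acetyltransferase Crat (-1.36 ± 0.18, adjusted p = 0.00308) and the fatty acid transporter Slc27a1 (-1.84 ± 0.34, 0.00886) fell, the peroxisomal carrier Scp2 did too (-0.88 ± 0.21, 0.0246), and Acacb, which makes the malonyl-CoA that blocks Cpt1a, rose (1.18 ± 0.19, 0.00545), by edgeR. Among 23 tested PPARα target genes, against the same shares of all genes, 6 fell and 1 rose (median -0.36). They included the retinol saturase Retsat (-2.41 ± 0.38, 0.00479), the glycerol phosphate dehydrogenase Gpd1 (-1.30 ± 0.28, 0.0169) and the aldehyde dehydrogenase Aldh3a2 (-1.02 ± 0.26, 0.0281), and against them Cyp4a31 rose (2.1 ± 0.51, 0.026), all by edgeR; Cyp4a genes are close copies whose reads may be shared. Of 21 transcription partners, again beside 3.73 percent lower and 5.54 percent higher among all genes, the bile acid receptor Nr1h4 (-1.21 ± 0.28, 0.0209) and the receptor Fgfr4 (-0.60 ± 0.17, 0.0449) fell and Ppard rose (0.69 ± 0.21, 0.0499), by edgeR. Averaged over the sexes, 16 of the 34 enzymes fell and 2 rose, and 7 of the 23 targets fell, beside 8.27 percent lower and 10.9 percent higher among all genes. For corylin, with 1.07 percent of all genes called, the average held Aacs (1.45 ± 0.30, 0.0374) and Acad10 (0.68 ± 0.15, 0.0451) as higher and Pdk4 (-2.38 ± 0.46, 0.03) as lower than in old livers, by edgeR.

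Of the 8 ketone body genes 1 rose and 0 fell in old female liver, beside 5.54 percent higher and 3.73 percent lower among all genes, and averaged over the sexes 2 rose and 2 fell (edgeR; 10.9 and 8.27 percent). Oxct1, which starts the use of ketone bodies, averaged 657 TPM in kidney, 243 in quadriceps and 6.23 in liver. In female liver the list summed to 4458 to 4901 TPM in young, 1926 to 3828 in old and 3682 to 4569 in corylin females. Every old female thus lay below every young one, and the list's median log2 fold change there was -0.48. The gene that passed there was the transporter Slc16a6, with 3.36 ± 0.81 (edgeR adjusted p = 0.0253). In female kidney Aacs (1.49 ± 0.28, 0.00231) and Slc16a6 (0.96 ± 0.26, 0.0243) rose and the thiolase Acat1 fell (-0.52 ± 0.15, 0.035), by edgeR, beside 7.69 percent higher and 3.16 percent lower among all genes.

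In female kidney, where 3.16 percent of all genes fell and 7.69 percent rose, 4 of the 34 other enzymes fell and 1 rose with age, led by the long-chain acyl-CoA synthetase Acsl1 (-0.64 ± 0.11, edgeR adjusted p = 0.00131) and the branched-chain oxidase Acox2 (-0.95 ± 0.21, 0.0067). The age change of Acsl1 differed between the sexes (-1.12 ± 0.16, 0.0217, females minus males, edgeR), a value not followed in fits without 1 library. Of 23 PPARα targets tested in kidney, against the same shares of all genes, 4 fell and 2 rose, and Ppargc1b was the 1 of 20 partners that fell (-0.61 ± 0.19, 0.0463). With corylin in male kidney, Pdk4, the kinase that shuts pyruvate oxidation (-1.70 ± 0.22, 0.00583), Acsl1 (-0.73 ± 0.11, 0.0132), Ppard (-0.70 ± 0.12, 0.0355) and the ketone and lactate transporter Slc16a1 (-1.89 ± 0.33, 0.0398) fell by edgeR (0.0699 percent of all genes passed), while 0 of the 32 genes passed there. In old female quadriceps Crot (-0.72 ± 0.18, 0.0317) and Txnip (-0.71 ± 0.20, 0.0436) fell, by edgeR, where 2.17 percent of all genes fell.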

How the data were processed

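RNA-seq of liver, kidney and quadriceps was deposited as 1 table per tissue. Per the submitters' processing notes, HISAT2 2.1.0 and featureCounts 2.0.1 were used, besides FastQC 0.11.9 and fastp 0.20.0, with the builds GRCm38 and mm10. For the strand setting and annotation release, nothing is given in the sources used here. The tables hold raw counts per gene made by the authors, and TPM values that the authors scaled by gene length and library. They also hold the authors' deposited log2 fold changes and p-values, used only where the authors' table is named.

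The counts were analysed with edgeR 4.0.16 (limma 3.58.1, R 4.3.3), with TMM scaling, filterByExpr (minimum count 10, minimum total 15), and 1 robust quasi-likelihood fit per tissue over 6 groups. Fits across tissues had the animal as a block. The threshold was an adjusted p of 0.05 (Benjamini-Hochberg over all genes tested), and the fits were tested on simulated data. P-values measure the spread between these animals. Total counts were 8.69 to 23.19 (in units of 1000000), so genes of a few counts are imprecise. Alternatives were DESeq2 1.42.0, RLE scaling, no filter, the letter B or R of the library name as a covariate, a replicate block, leaving out each library, and, chosen after seeing the data, leaving out 3 quadriceps libraries.

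The members, the lists and the tests were chosen with earlier results of these data known. Values in every library are given per tissue for up to 12 members, those with the smallest adjusted p over the age and corylin comparisons with at least 1 for each role tested. From the other lists up to 4 genes with the smallest adjusted p are named where 1 passed, with the highest mean levels. Further genes were named after their values were seen. 0 columns lacked a sample. Liver of corylin male 1 was not analysed here. Within a tissue, replicate numbers were not treated as pairs. Some genes of the lists are not reported here.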

Additional observations from a re-analysis of the deposited data

Results flagged for a closer look

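The age change differed between female liver and female kidney, by a test of the difference itself, for Pex11a (-1.83 ± 0.37, edgeR adjusted p = 0.00895), Abcd2 (-2.50 ± 0.63, 0.0379) and Acadm (-1.70 ± 0.44, 0.0465), each as the liver change minus the kidney change on the log2 scale. In 0 of 6 young kidneys did Abcd2 reach the level of the filter on low counts, so nothing is read from its value. In fits without 1 animal, Pex11a passed in 4 of 6 and Acadm in 1 of 6. The age change in kidney differed between females and males for Acsl1 (-1.12 ± 0.16, edgeR adjusted p = 0.0217), by the same kind of test. Acsl1 was the only gene outside the 32 considered here, and its value was not followed in fits without 1 library.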

How the results depend on the processing

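Counts of the 32 genes called are given as the reported count, then the count under another choice, and the cause of each move was not tested. The share of all genes called under each choice is not given, so no move is read as particular to the 32 genes. With DESeq2 the age counts moved in male liver from 0 to 5, for the sex difference in liver from 0 to 1 and in kidney from 0 to 4, and in quadriceps from 2 to 5 in females, from 0 to 3 averaged and from 0 to 2 for the sex difference. The corylin counts moved with DESeq2 from 0 to 3 in female liver, from 0 to 1 for the sex difference in liver, from 0 to 2 in male kidney and for the sex difference in kidney, and from 0 to 1 in female quadriceps, and the young sex count in quadriceps from 0 to 1. Without the filter on low counts, the age change in liver minus kidney in females moved from 3 to 1, kidney age averaged from 4 to 2, the kidney sex differences of age and corylin from 0 to 1, female liver corylin and male liver age from 0 to 1, and female quadriceps age from 2 to 0. With the library letter as covariate female liver corylin moved from 0 to 1 and female quadriceps age from 2 to 0. All young libraries carry the letter B and the 12 R libraries are old or corylin, so letter and age are partly tied. In liver that covariate ended the female call of Etfa (edgeR adjusted p = 0.0568) and the averaged calls of Abcd3, Acads, Etfa, Etfdh and Hadhb. Without the 3 quadriceps libraries high in slow fibre markers, a choice made after seeing the data, age averaged moved from 0 to 5 and corylin from 0 to 1 in females and averaged.

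With the replicate number as a block, the kidney sex difference of age moved from 0 to 2 and quadriceps age averaged from 0 to 1, and liver age was 13 in females and 21 averaged. The numbers were not used as a pairing in the reported counts. The correlation of the deviations of same-numbered libraries exceeded 0.1 in 17 of 40 pairs in liver, 13 of 45 in kidney and 18 of 45 in quadriceps. By mean correlation, the libraries closest to those of their own number were 12 of 17 in liver, 10 of 18 in kidney and 12 of 18 in quadriceps. Most same-numbered pairs of each tissue thus did not exceed 0.1. Their median correlation was lowest for kidney (0.028), then liver (0.064), and highest for quadriceps (0.075). Single pairs reached down to -0.404, a value from quadriceps. How many libraries would be closest to their own number by chance was not tested. The reported fits do not model any deviation shared by number. Number 3 has the letter R in every old and corylin group, so number and letter are tied there.

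Leaving out 1 library gave 3 to 8 calls for female liver age, 10 to 18 averaged and 0 to 1 for young sex. For corylin in liver it gave 0 to 1 in females. The other corylin counts in liver are left out, because some of those fits keep 1 library of corylin males. In kidney age gave 5 to 8 in females, 2 to 7 averaged and 0 to 3 for the sex difference, corylin 0 to 1 in males and for the sex difference, and young sex 1 to 4. In quadriceps age gave 0 to 9 in females, 0 to 7 averaged and 0 to 1 for the sex difference, and corylin 0 to 1 in females, averaged and for the sex difference. The liver minus kidney age change in females gave 0 to 4. No log2 fold change of a called gene turned its sign under the alternatives run. Genes of a few counts, such as Abcd2 and Cpt1b in kidney, are limited by depth.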
